A study of Mus musculus with 4 samples.

Results

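The lymphotoxin, RANK and BAFF pathway genes measured here are 10 genes of the tumour necrosis factor (TNF) family and its non-canonical NF-kB branch: Lta, Ltb, Tnfsf11, Tnfsf13b, Ltbr, Tnfrsf1a, Tnfrsf11a, Tnfrsf11b, Relb and Nfkb2. They were taken as the non-control array probes whose gene name is one of these symbols or an older synonym of it. The rule found 13 probes of 41174, and all 10 genes were among the 21392 genes tested. Each array carried RNA of CD45-negative cells, the cells that remain when leukocytes are removed, from lymph nodes of wild-type C57BL/6NCrl mice. The mesenteric lymph node (mLN) was compared with the peripheral lymph node (pLN) in 2 experiments, which gave 2 arrays per node and 4 in all. The labels name no treatment, and neither the age of the mice, their number per sample nor the peripheral site is given in the sources used here. Nodes were digested with collagenase and the cells were separated with magnetic beads. The labels give their average purity as 97.4% ± 2.0 in mLN samples and 97.5% ± 2.2 in pLN samples.

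In lymph nodes, lymphotoxin made by lymphocytes and lymphoid tissue inducer cells acts on stromal cells through the lymphotoxin beta receptor. That receptor signals through NIK to process the Nfkb2 product p100 into p52, which enters the nucleus with RelB and switches on the chemokine and adhesion genes of node stroma. RANK ligand, the product of Tnfsf11, is needed for lymph nodes to form and marks the marginal reticular cells under the node capsule, while osteoprotegerin, the product of Tnfrsf11b, is a secreted decoy receptor that binds RANK ligand. BAFF, the product of Tnfsf13b, keeps B cells alive and is made by fibroblastic reticular cells and myeloid cells.

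The sorted cells carried the signal of stroma on all 4 arrays. The 6 reticular stroma markers were well above background on each of them, with a summed level between 227 and 258 times the array's 75th percentile, and differences between the nodes from −0.08 to 0.12 on the log2 scale. Ptprc, which encodes CD45, was by its brightest probe also well above background on each array, with processed signals from 496 to 696. A dimmer Ptprc probe, at 89.9 to 183, was too, while another was so on 1 mLN array only and the last on none. By the brighter probes, some leukocyte RNA was present in both nodes. The 75th percentile of the processed signal lay between 1686 and 1741, and the share of probes above background by the scanner's flag was 74.0% to 81.1%. At a threshold of 0.05 on limma's Benjamini-Hochberg adjusted p, 225 genes were called, which is 1.05% of those tested. Since no label ties the experiments to different animals, the p-values reflect only how far these samples scatter, which may be technical, and the number of arrays limits the precision.

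Of the 10 genes, 1 passed the test, Tnfrsf11b, which was higher in mLN, where 0.776% of all genes tested were called higher and 0.276% lower. The median difference of the 10 genes was −0.06, beside −0.03 over all genes tested, and 4 differences were positive and 6 negative. Before adjustment 3 of the 10 had p below 0.05, beside 14.7% of all genes. The arrays of the nodes did not overlap for 5 of the 10 genes, 2 higher and 3 lower in mLN, beside 45.6% of all genes (20.6% higher and 25% lower).

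The array reports each gene through probes of 60 bases, and the following 30-base 5′ ends identify those of the RANK genes on which the results turn. The letters come from the deposited files, and the capitals mark a stretch of 19 bases that occurs again in the same probe from base 30 on.
Tnfrsf11b, probe A_52_P106620: tttatccagctgtcatgtctggttcagtat
Tnfsf11, probe A_51_P465640: acaggttgtgtatatgtaaagtccataggt
Tnfsf11, probe A_52_P488947: gtcattgcaaagaaatgatagtgtgaaggg
Tnfrsf11a, probe A_52_P1068320: ATCTAGACCTTAACAGTAAtccggcaggta
Tnfrsf11a, probe A_51_P122906: cgcagacttcactccatacccaggggtccg
In the mm8 assembly, as the files place them, the Tnfrsf11b probe lies at chr15:54081288-54081347 and the Tnfsf11 probes at chr14:77012528-77012587 and chr14:77012307-77012366. The Tnfrsf11a probes lie at chr1:107674722-107674781, with the repeated stretch, and at chr1:107672367-107672426. No exon or UTR was assigned to them, since no gene models of that build were used here.

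**Figure D1:**
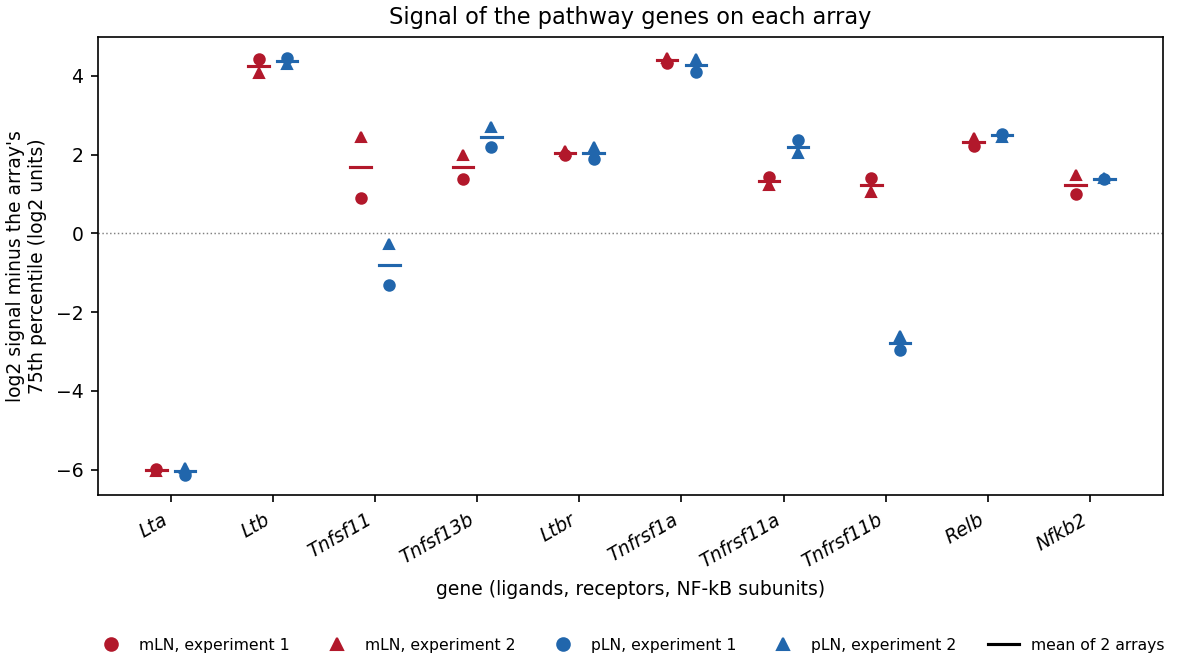
Signal of each of the 10 genes on the 4 arrays, as log2 of the processed signal minus the array's 75th percentile (vertical axis), with mLN in red, pLN in blue, circles for experiment 1, triangles for experiment 2 and bars for the mean of 2 arrays. Tnfrsf11b lies at 1.04 and 1.40 on the mLN arrays and at −2.95 and −2.59 on the pLN arrays, and Tnfsf11 also separates by node, while Lta, Ltb, Ltbr, Tnfrsf1a and Nfkb2 overlap.

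Tnfrsf11b, the osteoprotegerin gene, had processed signals of 4606 and 3558 on the mLN arrays and 224 and 279 on the pLN arrays, experiment 1 before experiment 2. Both mLN arrays lay far above both pLN arrays, and the probe was well above background and unsaturated on all 4. The gene was 16.0-fold higher in mLN, a log2 difference of 4.00 ± 0.22 (SE, 2 arrays per node, adjusted p = 0.0133 by limma) with a 95% interval from 3.41 to 4.58. Experiment 1 alone gave 4.36 and experiment 2 alone 3.63. By its p-value it ranked at position 44 of the 21392 genes. The call did not hold when pLN replicate 1 (3.82, adjusted p = 0.0997) or pLN replicate 2 (4.18, adjusted p = 0.107) was left out, and in those fits none of the 21392 genes was called. It also did not pass with normexp background correction (3.50, adjusted p = 0.689), a setting in which no gene passed.

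In bulk samples such as these, more cells of a type that expresses a gene and more RNA per cell cannot be told apart. Markers of mesothelium, the cell layer over the abdominal organs, moved with Tnfrsf11b. Upk3b and Msln, well above background on all 4 arrays, were higher in mLN by 9.62 and 8.88 on the log2 scale (limma adjusted p = 0.00265 and 0.0159). Their pLN signals were low, at 18.4 and 19.7 for Upk3b and 51.9 and 18.1 for Msln, so the sizes are uncertain. With normexp background correction they came to 7.24 and 6.98. The other 3 of the 5 were dim in pLN, where 1 array had Lrrn4 well above background and neither had Wt1 or Bnc1. These 3 entered the test through the mLN arrays alone, so their calls are not counted here. With their pLN level raised to the array's lowest signal well above background, Wt1 and Bnc1 were 72.8-fold and 62.5-fold higher in mLN. On the log2 scale these bounds are 6.19 and 5.96. With normexp background correction the differences were 4.22 and 4.15, so the bounds hold for the processed signal only. The 5 markers had a summed level of 19.3 to 25.2 times the 75th percentile on the mLN arrays and 0.0348 to 0.0709 on the pLN arrays. That sum includes the 3 that entered through the mLN arrays alone, so it rests partly on the filter. Upk3b alone had 9.28 and 8.27 on the mLN arrays and 0.0106 and 0.0117 on the pLN arrays. The 6 pancreatic acinar markers had a summed level of 254 to 675 on the mLN arrays and 1.16 to 16.8 on the pLN arrays, and 0 of them passed, although all 6 had an unadjusted p below 0.05 (limma). With the experiment as a block, 4 of the 6 passed, namely Cel, Cpa1, Pnliprp2 and Ctrb1 (limma adjusted p from 0.015 to 0.0246). The part of these tissues in the Tnfrsf11b difference was not tested.

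Tnfsf11, the RANK ligand gene, had signals of 3239 and 9448 on the mLN arrays and 699 and 1392 on the pLN arrays. Both mLN arrays lay above both pLN arrays, and in each node experiment 2 was the higher one. The log2 difference was 2.47 ± 0.65 (SE, n = 2 per node), a ratio of 5.52, and it did not pass (limma adjusted p = 0.205), with a 95% interval from 0.73 to 4.20. The ratio within an experiment varied less than the levels, at 2.21 in experiment 1 and 2.73 in experiment 2 on the log2 scale. With the experiment as a block it passed (2.47 ± 0.20, adjusted p = 0.0351), which made 2 called genes of the 10. Left-out arrays moved the value between 1.69 (without mLN replicate 2) and 3.24 (without mLN replicate 1). The second probe, which does not overlap the first, gave 2.50, with 2.16 and 2.84 in the experiments. The ligand and its decoy receptor gene both had a positive difference, and of these only the decoy receptor was called in the fit without a block.

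Tnfrsf11a encodes RANK, the signalling receptor for that ligand. Its brighter probe had signals of 4723 and 4024 on the mLN arrays and 8942 and 6932 on the pLN arrays. Both mLN arrays lay below both pLN arrays, opposite to the ligand and the decoy. The log2 difference was −0.87 ± 0.19, a level 1.83 times as high in pLN, and did not pass (limma adjusted p = 0.151, 95% interval −1.38 to −0.37). The other probe, which lacks the repeated stretch shown above, gave −0.41, with signals of 232 and 203 on the mLN arrays and 283 and 286 on the pLN arrays. The groups did not overlap by this probe either, and the mean of both probes in the fit was −0.64. The 8 epithelial markers summed to 5.32 to 7.63 times the 75th percentile on the mLN arrays and 9.45 to 15.8 on the pLN arrays. That separation came from Csn3, a milk protein gene, which was called lower in mLN by −6.91 ± 0.57 (limma adjusted p = 0.0252). Without it the sums overlapped, at 7.59 and 5.29 in mLN and 7.14 and 8.75 in pLN. Gene by gene, 5 of the 8 lay below the pLN arrays on both mLN arrays, 0 above and 3 overlapped. Over all genes, 25% lay below without overlap and 20.6% above. The median of the 8 was −1.94. Epcam, well above background on all 4 arrays, had −2.10 ± 0.34 (limma adjusted p = 0.105). Its signals were 173 and 203 in mLN and 589 and 1072 in pLN. The keratin genes Krt8 and Krt14, the only 2 above 0, had differences of 0.22 and 0.54, with overlapping groups. Esrp1 and Elf5, 2 of the 5 below, were well above background on the pLN arrays alone, through which they entered the test. Their place in the count and the median rests on the filter, so their calls are not counted here. The 5 blood endothelial markers summed to 55.8 and 47.7 in mLN and 71.3 and 65.9 in pLN. Of these, 4 lay below the pLN arrays on both mLN arrays and 1 above, beside 25% and 20.6% of all genes. Their median was −0.55, and 0 of 5 passed (3 had an unadjusted p below 0.05, limma). The part of epithelial and endothelial RNA in the Tnfrsf11a value was not tested.

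Tnfsf13b, the BAFF gene, had signals of 4520 and 6825 on the mLN arrays and 7895 and 10942 on the pLN arrays by its brighter probe. The mLN arrays lay below the pLN arrays, and experiment 2 was the higher one in each node. The log2 difference was −0.76 ± 0.30 (limma adjusted p = 0.366, 95% interval −1.57 to 0.04), which did not pass, also not with the experiment as a block (adjusted p = 0.123). It came to −0.81 in experiment 1 and −0.72 in experiment 2, and with 1 array left out it ran from −1.07 (without mLN replicate 2) to −0.46 (without mLN replicate 1). The second probe gave −0.83. The probes lie at chr8:10035533-10035592 and chr8:10037355-10037414 in mm8, and the accession of the second is a cDNA clone. The 7 myeloid markers, whose cells are another source of BAFF, ran both ways, from −0.77 to 0.75 with a median of 0.40, and 0 of 7 passed (limma). Of them 3 lay above the pLN arrays on both mLN arrays, 1 below, and 3 overlapped, beside 20.6% and 25% of all genes above and below. The 1 below was Itgam, which also gave the low end of that range. It was well above background on 1 mLN array and entered the test through the pLN arrays, so its place is not counted as a result. The 1 with an unadjusted p below 0.05 was the dendritic cell integrin gene Itgax, at 0.61 ± 0.17 (adjusted p = 0.233). A dimmer Itgax probe gave 0.08, with overlapping groups. The lysozyme gene Lyz2, at −0.74 ± 0.39, made up most of their summed level, which was 4.24 to 6.27 times the 75th percentile in mLN and 5.88 to 10.3 in pLN. Without Lyz2 the sums were 0.996 and 0.847 in mLN and 0.718 and 0.671 in pLN. Their part in the Tnfsf13b value was not tested.

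**Figure D2:**
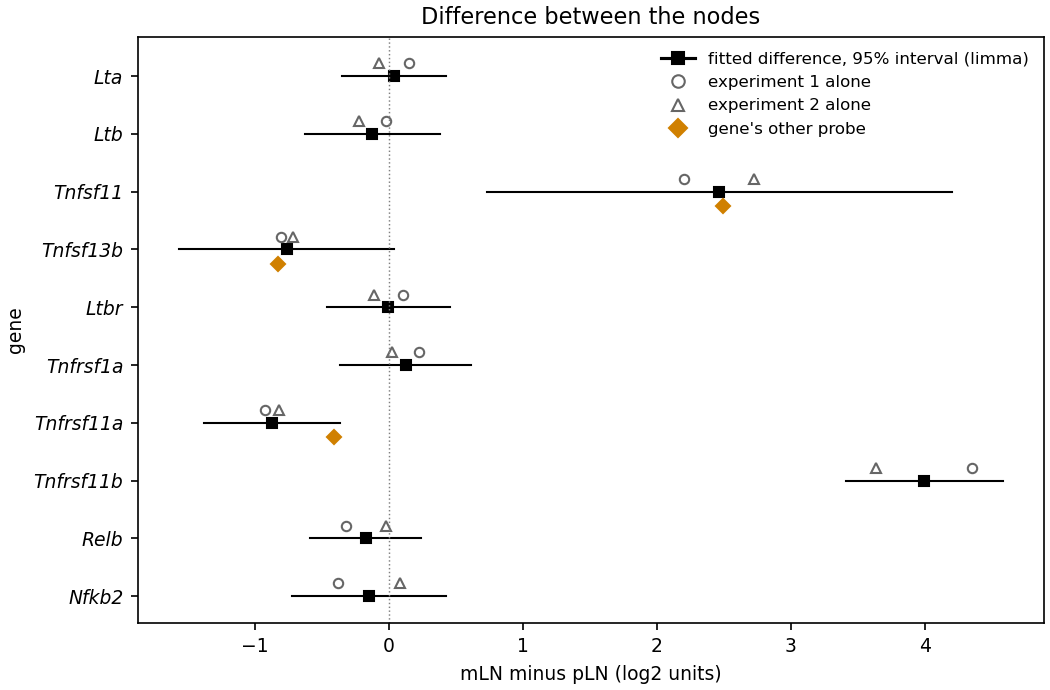
Difference between mLN and pLN for each gene in log2 units (horizontal axis), with the fitted value and its 95% interval in black, each experiment alone as open symbols and a gene's other probe as an orange diamond. The interval of Tnfrsf11b runs from 3.41 to 4.58 and that of Tnfsf11 from 0.73 to 4.20, and the second probes of Tnfsf11 and Tnfsf13b lie next to the first.

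The lymphotoxin genes had differences smaller than their standard errors. Ltb, which encodes the membrane-anchoring chain of the lymphotoxin heterotrimer, had signals of 37584 and 29116 in mLN and 37989 and 33175 in pLN. The ranges overlapped, and the log2 difference was −0.12 ± 0.19 (limma adjusted p = 0.843, 95% interval −0.63 to 0.38). Lta, which encodes the soluble chain, gave 27.7 and 26.3 in mLN and 24.9 and 27.0 in pLN, a low signal that the scanner software still marked as well above background on all 4 arrays. Its difference was 0.04 ± 0.14 (adjusted p = 0.95, interval −0.35 to 0.42). The Lta probe was printed at 10 spots on each array, and the SD of log2 signal between spots was 0.15 to 0.46. Ltb and Lta are expressed mainly by lymphocytes, and the 6 B cell markers were measured on all 4 arrays with a summed level of 3.05 to 3.99 times the 75th percentile in mLN and 4.05 to 5.26 in pLN. Their differences ran from −0.52 to −0.26, 0 of 6 passed and 0 had an unadjusted p below 0.05 (limma). Which cells gave the Ltb signal was not tested. The Ltb and Lta probes lie at chr17:34804204-34804263 and chr17:34811382-34811441 in mm8.

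Of the lymphotoxin receptor genes among the 10, neither Ltbr nor Tnfrsf1a differed by more than its error. Ltbr, the lymphotoxin beta receptor gene of stroma, had signals of 6899 and 7312 in mLN and 6394 and 7703 in pLN, with the mLN arrays between the pLN arrays. The log2 difference was −0.00 ± 0.17 (limma adjusted p = 0.996), and its 95% interval, from −0.47 to 0.46, allows a change of up to 1.38-fold either way. Tnfrsf1a, which encodes the p55 receptor for TNF and for soluble lymphotoxin, had 34777 and 38056 in mLN and 29611 and 36497 in pLN. The groups overlapped and the difference was 0.12 ± 0.18 (adjusted p = 0.837, interval −0.36 to 0.61). This probe, too, was printed at 10 spots, whose SD was 0.03 to 0.07 on the log2 scale, beside an SD of 0.24 (n = 2) between the pLN arrays. In mm8 the Ltbr probe lies at chr6:125272215-125272274 and the Tnfrsf1a probe at chr6:125327977-125328036.

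The NF-kB subunits of the non-canonical branch had small negative differences, and neither passed. Relb had signals of 8023 and 9275 in mLN and 9987 and 9199 in pLN by the processed signal. After scaling, the mLN arrays lay just below the pLN arrays, at 2.20 and 2.42 against 2.53 and 2.45 above the 75th percentile, and the difference was −0.17 ± 0.15 (limma adjusted p = 0.707, interval −0.59 to 0.24). Nfkb2 gave 3447 and 4839 in mLN and 4475 and 4450 in pLN, so that the pLN arrays lay between the mLN arrays. Its difference was −0.15 ± 0.21 (adjusted p = 0.834, interval −0.73 to 0.43), with −0.38 in experiment 1 and 0.08 in experiment 2. The Relb probe lies at chr7:18764895-18764954 in mm8. The 60-base Nfkb2 probe is placed at chr19:46364967-46365106, a span of 140 bases, so its match to the genome is interrupted. Map3k14, the gene of NIK, the kinase above them, had 0.04 ± 0.14 (adjusted p = 0.941).

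NF-kB dimers bind a degenerate consensus of 10 bases, the kB motif, and Nfkb2 is itself a textbook NF-kB target. The 250 bases before the start of each gene, from RefSeq on GRCm38.p6, were searched for it on both strands. Sequences were present for 8 of the 10 genes, and 2 of these held a match, Ltb and Nfkb2, beside 8.23% of 27025 genes. Printed below, with matches in capitals, are the promoters of those 2 genes, for which the arrays of the nodes overlapped, and that of Tnfsf11, the member with the larger ratio for which a promoter was given.
Nfkb2, chr19:46304487-46304736, plus strand: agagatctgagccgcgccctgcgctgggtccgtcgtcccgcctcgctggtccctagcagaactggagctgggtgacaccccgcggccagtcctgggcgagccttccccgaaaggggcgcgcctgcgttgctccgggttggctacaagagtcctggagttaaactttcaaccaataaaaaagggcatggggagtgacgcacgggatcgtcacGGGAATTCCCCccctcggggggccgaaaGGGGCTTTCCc
Ltb, chr17:35194257-35194506, plus strand: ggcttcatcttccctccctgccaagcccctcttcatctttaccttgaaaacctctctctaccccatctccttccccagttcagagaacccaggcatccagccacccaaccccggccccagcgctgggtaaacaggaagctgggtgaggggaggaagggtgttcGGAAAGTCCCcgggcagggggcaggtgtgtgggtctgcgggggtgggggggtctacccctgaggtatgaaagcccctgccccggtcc
Tnfsf11, chr14:78308044-78308293, minus strand: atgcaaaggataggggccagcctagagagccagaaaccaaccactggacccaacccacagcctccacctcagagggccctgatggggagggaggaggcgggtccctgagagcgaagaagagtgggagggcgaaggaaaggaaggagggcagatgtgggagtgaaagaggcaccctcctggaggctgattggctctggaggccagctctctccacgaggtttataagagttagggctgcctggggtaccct
In Nfkb2 the matches begin 39, 38 and 11 bases before the start, the first of them on both strands and overlapping the one at 38. Each of the other 2 starts listed for Nfkb2 also had 1 match in its window. In Ltb the match begins 87 bases before the start, on the minus strand, and reads GGGACTTTCC in the direction of the motif. The Tnfsf11 window has no such letters, which says nothing about more distant elements. A match is a description of sequence, not a measured site.

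The wider pathway was read from 4 lists of 71 genes, 66 of them tested. None of the 66 passed (limma), and 30 of the differences were positive. Among 11 other TNF family ligands tested, 2 had an unadjusted p below 0.05 and the median was 0.10, beside −0.03 for all genes. Tnfsf18, the GITR ligand gene, had signals of 38.4 and 42.7 in mLN and 98.8 and 122 in pLN, without overlap. Its difference of −1.46 ± 0.19 just missed the threshold (adjusted p = 0.0649) and turned to 0.77 with normexp background correction. Tnfsf8, the CD30 ligand gene, had 617 and 708 in mLN and 247 and 369 in pLN, a difference of 1.11 ± 0.26 (adjusted p = 0.168). Tnfsf10, which encodes TRAIL, had −0.26 ± 0.15 (adjusted p = 0.529). The remaining ligands tested, Tnf among them at 0.36 ± 0.27 (adjusted p = 0.646), lay between −0.18 and 0.46.

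Of 21 other receptors of the family, all tested, 5 had an unadjusted p below 0.05 and the median difference was 0.18. Cd40, which also signals through the non-canonical branch, had signals of 539 and 372 in mLN and 1074 and 1121 in pLN. The mLN arrays lay below the pLN arrays in both experiments, and the difference was −1.31 ± 0.23 (limma adjusted p = 0.111). Tnfrsf19, the TROY receptor gene, had 1.21 ± 0.25 (adjusted p = 0.141), and Tnfrsf25, the death receptor 3 gene, 0.76 ± 0.14 (adjusted p = 0.127). A dimmer Tnfrsf25 probe gave −0.10, and a dimmer Tnfrsf19 probe, well above background on 1 mLN array and on no pLN array, gave 0.18.

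The 24 NF-kB signalling genes had a median of −0.13, with 20 of 24 below 0, none called and 1 below an unadjusted p of 0.05 (limma). That gene was Traf2, an adaptor that restrains NIK, at −0.43 ± 0.15 (adjusted p = 0.321). Nfkbie, an inhibitor of NF-kB, had −0.37 ± 0.17 (adjusted p = 0.429), and Nfkb1, the gene of p105 and p50, −0.26 ± 0.13 (adjusted p = 0.484). The other Nfkb1 probes gave −0.38, 0.14 and 0.24 and thus differ in sign.

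Of 12 genes that depend on lymphotoxin in node stroma, 10 were tested, with a median of 0.18, and 1 had an unadjusted p below 0.05. Madcam1, an addressin gene, had signals of 14707 and 29088 in mLN and 8102 and 5307 in pLN. Which cells gave the Madcam1 signal was not tested. The groups did not overlap, and the difference was 1.64 ± 0.41 (limma adjusted p = 0.191), with 0.85 in experiment 1 and 2.42 in experiment 2. Vcam1 and Icam1, adhesion molecules induced by the receptors of this family, had 0.52 ± 0.32 (adjusted p = 0.57; 0.09 without mLN replicate 2, 0.94 without mLN replicate 1) and 0.34 ± 0.17 (adjusted p = 0.473). Bst1, a gene of marginal reticular cells, had 0.02 ± 0.34 (adjusted p = 0.988). The 4 follicular dendritic cell markers were all without overlap and higher in mLN, beside 20.6% of all genes. Cr2 had 1.30 ± 0.31 (adjusted p = 0.178) and Mfge8 0.83 ± 0.18 (adjusted p = 0.157). Fcer2a had 0.35 ± 0.18 (adjusted p = 0.484) and Clu 0.19 ± 0.15 (adjusted p = 0.661). The summed level of the 4 was 372 to 433 times the 75th percentile in mLN and 249 to 278 in pLN. None of the 4 passed, and their part in the Tnfsf11 value was not tested.

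**Figure D3:**
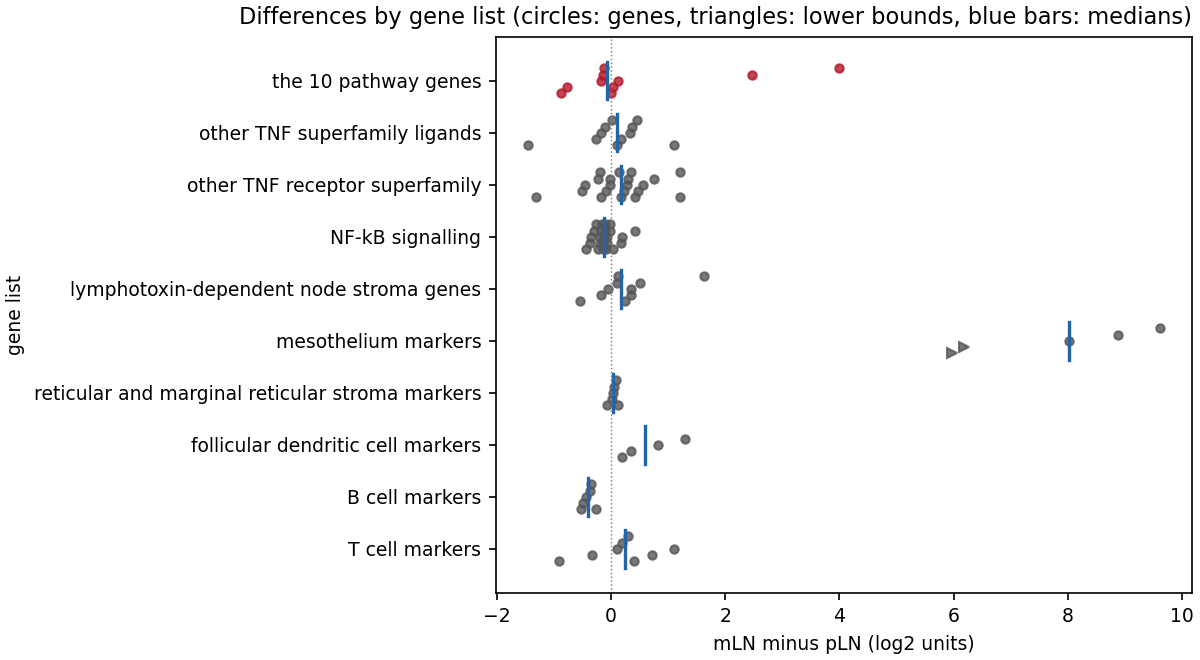
Differences between mLN and pLN in log2 units (horizontal axis) for the 10 genes (red), for the wider pathway lists and for 5 marker lists (grey), with each list's median as a blue bar. Tnfrsf11b at 4.00 and Tnfsf11 at 2.47 lie beyond every gene of the 4 wider lists, whose values end at 1.64, and the mesothelium markers Msln and Upk3b lie at 8.88 and 9.62. Triangles mark the lower bounds, by the processed signal only, of Wt1 and Bnc1, at 6.19 and 5.96, whose pLN signals were not well above background.

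Lymphoid tissue inducer cells and other ILC3, which supply lymphotoxin, were read from 6 markers, 3 of them tested. None of the 3 passed, and Ccr6, a chemokine receptor gene, had −0.88 ± 0.19 (limma adjusted p = 0.145). T cell markers ran both ways, from −0.90 to 1.11, with 0 of 8 called and 3 below an unadjusted p of 0.05. Lymphatic endothelial markers also ran both ways, with Lyve1 at 1.04 ± 0.17 (adjusted p = 0.105) and Prox1 at −0.85 ± 0.25 (adjusted p = 0.247).

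**Figure D4:**
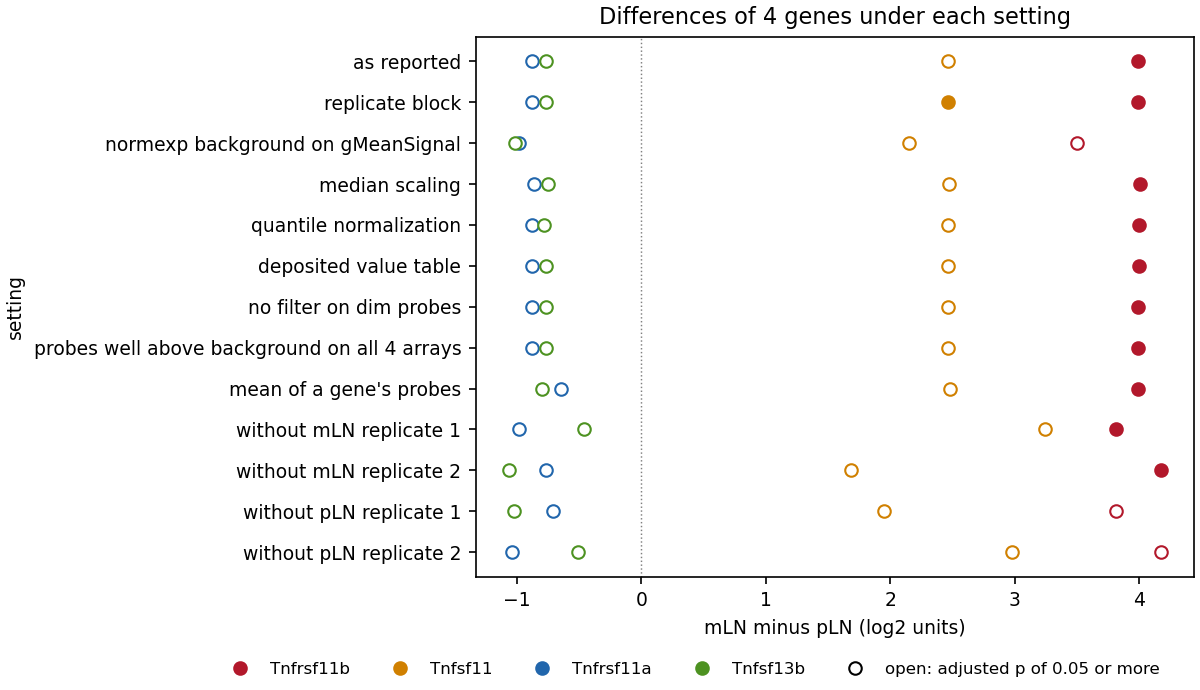
Difference between mLN and pLN in log2 units (horizontal axis) for Tnfrsf11b, Tnfsf11, Tnfrsf11a and Tnfsf13b under each setting (rows), with filled circles where the adjusted p was below 0.05. Tnfrsf11b lies between 3.50 and 4.18 and Tnfsf11 between 1.69 and 3.24, and Tnfrsf11a and Tnfsf13b lie below 0 in each setting shown.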

How the data were processed

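The deposited intensity values come from the scanner software, which the file headers name as Agilent Feature Extraction 9.5.3.1, background-subtracted and detrended within each array. Other deposited columns, per the file headers, are flags of 0 or 1 per spot. A value table of linear intensity was also deposited by the authors, with a step not stated in the sources used here, and served as an alternative only.

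Without control and outlier spots, replicate spots were averaged to 1 value per probe, which was put on the log2 scale relative to the array's 75th percentile. A probe was kept where both arrays of a node had it well above background (31883 of 41174 probes). The brightest kept probe stood for its gene. Names came from RefSeq (GRCm38). Differences were tested with limma 3.58.1 in R 4.3.3 over all genes, Benjamini-Hochberg adjusted, at a threshold of 0.05, after a check on simulated data. The smallest p of an exact permutation test of 2 against 2 arrays is 0.333. Experiment numbers stand in the sample titles, and deviations of the same experiment in both nodes correlated across genes with r = 0.246, so the experiment was also fitted as a block, given where it changed a call. Values after ± are standard errors unless stated. All arrays lie on 1 slide, per the file headers, and a slide effect cannot be fitted. Summed levels are sums of linear signal over a list's tested genes, in units of the array's 75th percentile. The named genes were all 10 members, and in each wider list the called genes and the 3 with the smallest p, and other genes named beside them were chosen after their values were seen. The members and lists were chosen with earlier results of these data known.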

Additional observations from a re-analysis of the deposited data

How the results depend on the processing

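The fits with 1 array left out called 0 to 1 of the 10 genes, 0 to 190 of all genes and 0 to 5 of the other listed genes, against 1, 225 and 7 as reported. A node with 1 array was assumed to vary like the other. The 7 other listed genes include Wt1, Bnc1, Lrrn4 and Esrp1, which entered the test through 1 node alone, as did Elf5, named below. The counts of other listed genes in this section therefore rest partly on the filter. With the experiment as a replicate block the pairing gave 2 of the 10 genes and 12 other listed genes, the added ones being Tnfsf11, Elf5 and 4 pancreatic genes, Cel, Cpa1, Pnliprp2 and Ctrb1, and it ended no call among the listed genes. Normexp background correction called 0 genes in each of the 3 counts and moved the median of all genes to 0.38, which leaves Tnfrsf11b 3.12 above that median. It gave Lta 1.63 and turned Tnfrsf1a to −0.20, Tnfsf18 to 0.77 and Esrp1 to 1.17, and the cause was not tested. Median scaling called 354 genes in all and gave Ltbr 0.0070. Without a filter on dim probes 44 genes were called in all and 3 of the other listed genes, and the count of other listed genes was also 3, with fewer tested, when every array had to be well above background. Tnfrsf11b remained called in all settings except normexp and those without a pLN array. With 1 array left out the small differences changed sign in places, with ranges of −0.040 to 0.12 for Lta, −0.30 to 0.056 for Ltb, −0.16 to 0.15 for Ltbr, −0.046 to 0.30 for Tnfrsf1a and −0.40 to 0.10 for Nfkb2. Signal limits the reading of Lta, whose 4 values, −6.12 to −5.97 relative to the 75th percentile, lie close to the lowest signals well above background, −7.08 to −6.51.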
